A study of Mus musculus with 6 samples.

Results

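Perineuronal matrix genes were described here in polysomal mRNAs of hippocampal astrocytes, as a set of 10 among the 22086 mouse genes with counts. The set was listed by gene symbol for its place in the brain matrix and not by a measured value. Earlier results of these data were, however, known when it was chosen. It holds the 4 lecticans aggrecan (Acan), brevican (Bcan), neurocan (Ncan) and versican (Vcan), the 2 membrane-spanning proteoglycans Cspg5 and Ptprz1, the 2 tenascins Tnr and Tnc, the link protein Hapln1 and the hyaluronan synthase Has2. All 10 genes were found in the count files, and 9 of them had enough counts to be tested together with 13545 genes in all.

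The libraries came from whole hippocampi of 6 weeks-old mice. The Cx43KO mice carried 2 floxed alleles of the connexin 43 gene (Cx43 fl/fl) and a Cre recombinase driven by the human GFAP promoter (hGFAP-Cre), and the Cx43FL mice were littermates with the same floxed alleles and no Cre. Mice of both groups also carried Aldh1l1:L10a-eGFP, a transgene on a bacterial artificial chromosome, kept heterozygous, that puts eGFP-tagged ribosomal protein L10a under the Aldh1l1 promoter of astrocytes. Translating ribosome affinity purification (TRAP) pulls down the tagged ribosomes with the mRNAs bound to them. There were 3 libraries per genotype. How many mice went into a library is not given in the sources used here. The p-values set the genotype difference against the spread between these libraries, which may not be the spread between mice.

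The perineuronal matrix is a mesh built on hyaluronan, a sugar chain extruded at the cell surface by hyaluronan synthases. Lecticans bind hyaluronan at one end, where link proteins lock them in place, and tenascins at the other, where tenascin-R trimers tie several lecticans together. Astrocytes and oligodendrocyte lineage cells make much of this material, which coats the cell bodies and dendrites of certain neurons as perineuronal nets and fills the space around synapses, and its chondroitin sulfate chains limit axon growth and plasticity.

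Total counts over all transcripts ran from 33423491 to 77030398 per library, and Cx43KO replicates 2 and 3 were the deepest. At these depths 3 counts of a gene stand for a level of 0.0926 to 0.199 CPM, the count scaled to the library's size by TMM over the tested genes. All 10 astrocyte markers on a list of that cell type were detected in every library, with a summed level of 17814 to 22074 CPM in Cx43FL against 10753 to 30088 in Cx43KO. Cx43KO replicate 1 held the lowest astrocyte sum, and it stood apart from the other 5 libraries on the first principal component. Gja1, which encodes Cx43, had 1396, 1382 and 1264 counts in Cx43FL against 1405, 2449 and 3079 in the deeper Cx43KO libraries. Scaled, these were 82.3 to 92.0 CPM and 87.2 to 98.4 CPM, ranges that overlapped. These totals thus do not show the loss of Gja1. Counts by exon were not examined, so whether a deleted part is missing cannot be seen. In such bulk preparations fewer cells of a type and less RNA per cell cannot be told apart.

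None of the 9 tested matrix genes was called between genotypes by edgeR's quasi-likelihood test, where a called gene had a Benjamini-Hochberg adjusted p below 0.05 and, in the higher group, a mean normalized count over 50. Among all tested genes 0.00738% were called higher and 0% lower in Cx43KO, that is 1 gene in all. At an unadjusted p below 0.05, 1 matrix gene, Tnr, was higher in Cx43KO and 0 were lower, where 5.66% of all tested genes were higher and 2.67% lower. Tnr was also the only tested matrix gene whose libraries did not overlap between the genotypes, an arrangement that 8.08% of tested genes showed with Cx43KO above and 7.45% with Cx43KO below. DESeq2 with its prior called 0 of the matrix genes, against 0.827% of its tested genes higher and 0.124% lower. The fitted log2 fold change was above 0 for 8 of the 9 genes, with a median of 0.55, and for 54.4% of all tested genes, with a median of 0.07.

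The levels of the genes, per kb of transcript, ranged from abundant to nearly undetected. In Cx43FL the mean level fell in the order Cspg5 with 98.4 ± 38.0 CPM per kb (SD, n = 3), Ncan with 49.7 ± 6.40, Bcan with 38.2 ± 8.37, Ptprz1 with 22.2 ± 4.86, Hapln1 with 11.7 ± 4.90, Tnr with 1.46 ± 1.08, Tnc with 0.520 ± 0.177, Vcan with 0.443 ± 0.288, Has2 with 0.190 ± 0.173 and Acan with 0.0300 ± 0.0445. Neighbours that overlapped in this order were Ncan and Bcan, and every pair from Tnr down to Acan. In Cx43KO the means kept the same order, led by Cspg5 with 79.8 ± 48.3 CPM per kb, Ncan with 75.6 ± 22.1 and Bcan with 58.9 ± 28.4. There the libraries of neighbouring genes separated only between Ptprz1 and Hapln1 and between Tnr and Tnc.

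**Figure D1:**
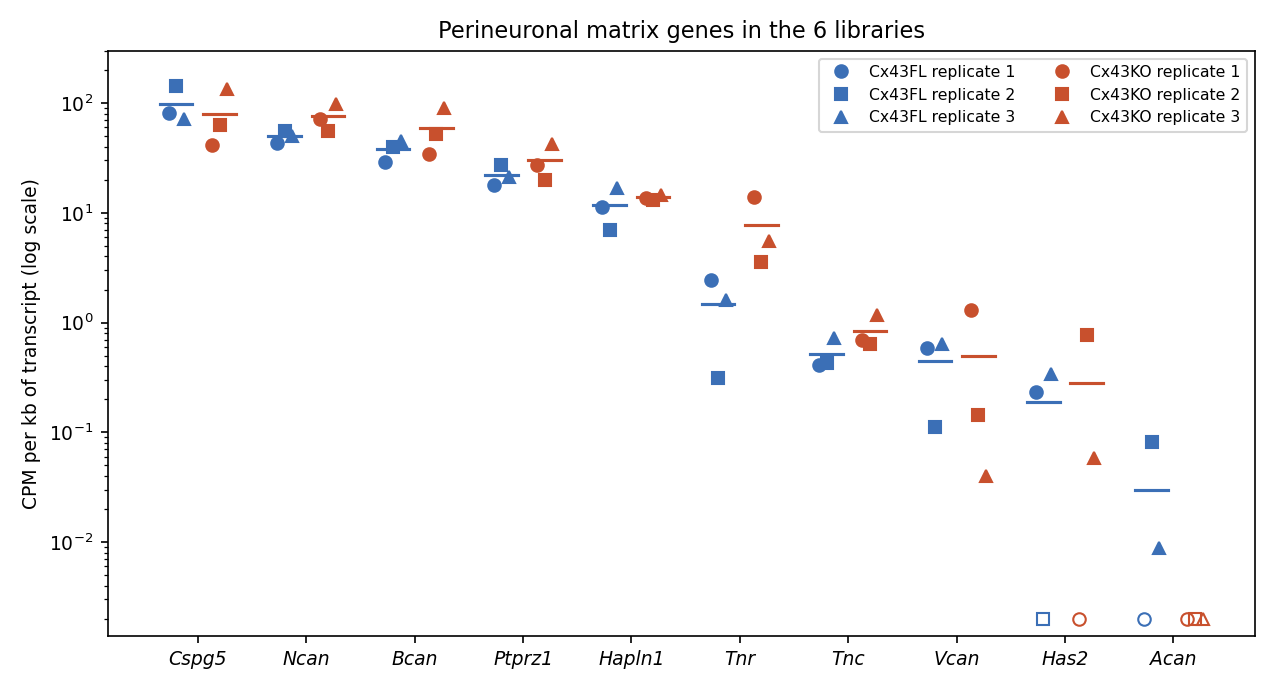
Level of each perineuronal matrix gene in each library, in CPM per kb of transcript on a log axis, with blue points for Cx43FL, orange points for Cx43KO, a short line at each group mean and open symbols at the bottom for libraries listed at 0. Cspg5, Ncan, Bcan, Ptprz1 and Hapln1 form an upper group, and only Tnr has all 3 Cx43KO libraries above all 3 Cx43FL libraries.

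Among the lecticans, Ncan and Bcan were the abundant members. Neurocan is a secreted lectican of the developing and adult brain that is cleaved as the tissue matures. Its counted transcript, on chr8:70093085-70120873 of GRCm38 (minus strand; positions of the other genes are likewise those of the counted transcript), had 311, 404 and 359 CPM in Cx43FL and 519.7, 398 and 713 CPM in Cx43KO. Cx43KO replicates 1 and 3 lay above all Cx43FL libraries, and replicate 2 fell just under the highest of them, so the genotypes overlapped by this 1 library. Ncan was 0.60 ± 0.29 higher on the log2 scale in Cx43KO (SE, n = 3 per genotype), with an adjusted p of 0.603 by edgeR after Benjamini-Hochberg adjustment and an unadjusted p of 0.0655.

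Brevican is the shortest lectican core protein and a major proteoglycan of the adult brain that gathers around synapses. Bcan, on chr3:87987531-88000230 (minus strand), had 91.4, 126 and 143 CPM in Cx43FL and 109, 164 and 283 CPM in Cx43KO. The highest value was in Cx43KO replicate 3 and the lowest in Cx43FL replicate 1, and Cx43KO replicate 1 lay inside the Cx43FL range. Its log2 fold change was 0.62 ± 0.37, with an adjusted p of 0.636 by edgeR's quasi-likelihood test (Benjamini-Hochberg). Ncan and Bcan thus had nearly the same fitted fold, 1.52 and 1.54, and the highest library of both was Cx43KO replicate 3.

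Aggrecan, the lectican that marks mature nets around fast-spiking neurons, was at the limit of detection. Acan, on chr7:79053483-79115099 (plus strand), had 0, 9 and 1 counts in Cx43FL and 0 in each Cx43KO library, and it was not tested. In Cx43KO, 0 counts allow a level of up to 0.186, 0.121 and 0.0926 CPM in replicates 1 to 3, and nearly all of the Cx43FL counts came from replicate 2.

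Versican is the largest lectican, and alternative splicing of 2 long exons that carry its chondroitin sulfate chains gives forms with both, either or neither of them. The gene lies on chr13:89655312-89742509 (minus strand). In Cx43FL its longest transcript had 7.25, 1.39 and 7.88 CPM, and in Cx43KO 16.1, 1.77 and 0.494 CPM. Cx43KO held both the highest library, replicate 1, and the lowest, replicate 3, a 32.7-fold range within that genotype. Fitted over all libraries, the log2 fold change was 0.15 ± 1.20, with an adjusted p of 0.982 by edgeR after Benjamini-Hochberg adjustment, and without Cx43KO replicate 1 it was -2.28 with an unadjusted p of 0.0868.

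The reads of Vcan were also deposited by transcript, which allows the spliced forms to be set side by side. The GAG-alpha exon, exon 7 of the longest transcript, lies at chr13:89702918-89705797 and has 2880 bases, and the GAG-beta exon, exon 8, lies at chr13:89688285-89693501 and has 5217 bases. For each of 4 forms, the junction found in that transcript and not in the other 3 is shown here 5′ to 3′ on the minus strand of GRCm38, with the last 30 bases of the first exon in lower case and the first 30 bases of the next exon in capitals.
Vcan-203, both GAG exons, exon 7 to 8: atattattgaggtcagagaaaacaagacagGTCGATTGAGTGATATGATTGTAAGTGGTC
Vcan-202, GAG-alpha only, exon 7 to 9: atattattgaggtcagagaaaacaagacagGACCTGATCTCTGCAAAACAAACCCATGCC
Vcan-206, GAG-beta only, exon 6 to 8: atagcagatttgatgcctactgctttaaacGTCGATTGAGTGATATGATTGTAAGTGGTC
Vcan-201, neither, exon 6 to 9: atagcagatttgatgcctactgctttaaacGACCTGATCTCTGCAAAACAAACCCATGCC
The first exon is exon 7, with its last 30 bases at chr13:89702918-89702947, in the forms with GAG-alpha and exon 6, with these bases at chr13:89712205-89712234, in the others. The next exon is exon 8, with its first 30 bases at chr13:89693472-89693501, in the forms with GAG-beta and exon 9, with these bases at chr13:89685163-89685192, in the others.

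A read was counted on every transcript it overlapped, so the difference between a transcript with a GAG exon and Vcan-201 with neither counts reads on that exon. These transcripts also differ in the length of their untranslated ends, and the exon models of the counting annotation may differ from those used here. Vcan-202 exceeded Vcan-201 by 48, 6 and 65 counts in Cx43FL, against 76, 0 and 0 in Cx43KO. Vcan-206 exceeded Vcan-201 by 12, 1 and 25 counts in Cx43FL, against 26, 36 and 5 in Cx43KO. The GAG-alpha difference was thus the larger in every Cx43FL library and in Cx43KO replicate 1, and it was 0 in Cx43KO replicates 2 and 3, where the GAG-beta difference was above 0. Summed by genotype, the GAG-alpha differences came to 119 counts in Cx43FL and 76 in Cx43KO, and the GAG-beta differences to 38 and 67. These counts are small and were not tested.

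**Figure D2:**
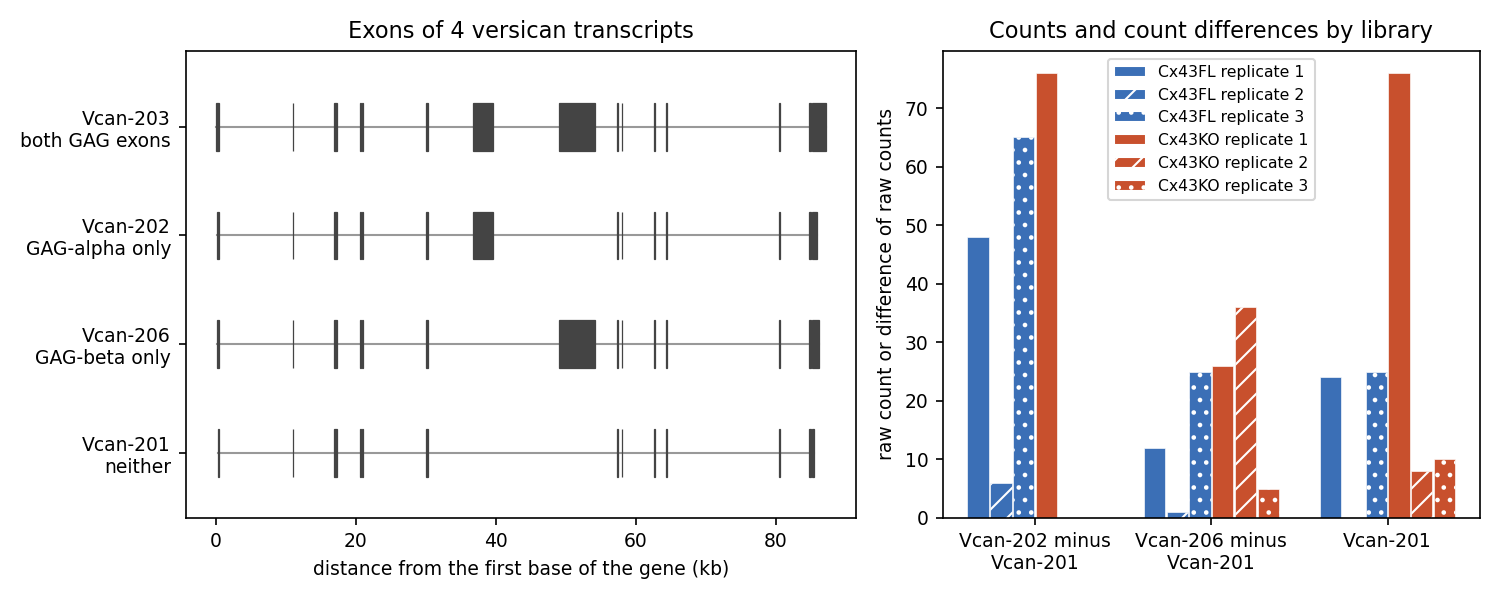
Left, exons of 4 Vcan transcripts as dark boxes along the distance in kb from the first base of the gene, and right, bars per library for the count difference of Vcan-202 and of Vcan-206 over Vcan-201 and for the Vcan-201 count itself, with blue for Cx43FL and orange for Cx43KO. The GAG-alpha difference reaches 76 counts in Cx43KO replicate 1 and is 0 in Cx43KO replicates 2 and 3.

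The 2 membrane-spanning proteoglycans were among the most abundant matrix genes. Cspg5 encodes neuroglycan C, a brain proteoglycan with an EGF-like domain, and lies on chr9:110243783-110262575 (plus strand). It had 316, 549 and 277 CPM in Cx43FL and 162, 246 and 519 CPM in Cx43KO. The 2 lowest libraries were Cx43KO replicates 1 and 2, while replicate 3 was near the top, so the genotypes overlapped widely. It was the only tested matrix gene fitted below 0, with a log2 fold change of -0.30 ± 0.43 and an adjusted p of 0.847 by edgeR's quasi-likelihood test (Benjamini-Hochberg).

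Ptprz1 encodes a receptor protein tyrosine phosphatase whose secreted splice form is the proteoglycan phosphacan, a ligand of tenascins and of neural cell adhesion molecules. The counted transcript, on chr6:22875502-23052916 (plus strand), had 145, 222 and 169 CPM in Cx43FL and 220.0, 160.4 and 345 CPM in Cx43KO. Only Cx43KO replicate 3 lay above all Cx43FL libraries. Ptprz1 had a log2 fold change of 0.44 ± 0.34, with an adjusted p of 0.706 by edgeR after Benjamini-Hochberg adjustment. As 1 transcript alone of Ptprz1 was in the counts, phosphacan and the receptor could not be separated.

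Tnr showed the widest separation between genotypes among the matrix genes. It encodes tenascin-R, the brain-restricted tenascin that binds the C-terminal end of lecticans and joins them in perineuronal nets, and oligodendrocytes and certain interneurons are known to make it. The gene, on chr1:159737510-159924397 (plus strand), had 165, 21 and 110 counts in Cx43FL against 1002, 393 and 793 in Cx43KO. These stand for 10.9, 1.39 and 7.16 CPM in Cx43FL and 62.2, 15.8 and 24.5 CPM in Cx43KO. Every Cx43KO library was above every Cx43FL library, with the gap narrowest between Cx43KO replicate 2 and Cx43FL replicate 1, and Cx43KO replicate 1 held by far the most. Within Cx43FL the libraries themselves ranged 7.80-fold.

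The fitted difference of Tnr was 2.397 ± 0.78 on the log2 scale, a 5.27-fold higher level in Cx43KO, with a 95% interval of 0.68 to 4.11. The adjusted p was 0.538 by edgeR's quasi-likelihood test (Benjamini-Hochberg), and the unadjusted p was 0.0105. The exact 2-sided permutation test gave p = 0.1, the smallest that 3 against 3 libraries allow. DESeq2 with its prior gave a log2 fold change of 1.63 and an adjusted p of 0.0837. Leaving out each library in turn kept the log2 fold change between 1.64 and 2.98. The lowest value came without Cx43KO replicate 1, where the unadjusted p was 0.0505.

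Markers of other cell types moved with Tnr in some libraries. The 8 oligodendrocyte markers summed to 591, 1015 and 634 CPM in Cx43FL and 2662, 1005 and 610 CPM in Cx43KO. Their sum was thus highest in Cx43KO replicate 1, as for Tnr, while Cx43KO replicates 2 and 3 lay inside the Cx43FL range, with Tnr above its own. Of these markers 8 of 8 were fitted above 0, beside 54.4% of all tested genes, and none was at 0 in any library. The unadjusted test was passed by 1 of them, higher in Cx43KO, beside 5.66% of all tested genes. The 9 inhibitory neuron markers summed to 161 to 206.4 CPM in Cx43FL, against 251 to 548 in Cx43KO, with every Cx43KO sum above every Cx43FL sum and replicate 1 the highest. These 9 genes did not all move together, as 6 were fitted above 0 and the lowest log2 fold change was -1.79. The unadjusted test was passed by 1, higher in Cx43KO, beside 5.66% of all tested genes. Only 1 had every Cx43KO library above every Cx43FL library, beside 8.08% of all tested genes. The 12 neuron markers, none of them at 0, summed to 2631 to 3332 CPM in Cx43FL, against 3377 to 8131 in Cx43KO, again without overlap. Of the 12, 6 passed the unadjusted test, all higher in Cx43KO, beside 5.66% of all tested genes. The 9 oligodendrocyte precursor markers in the counts, of 10 listed, summed to 206.3 to 276 CPM in Cx43FL, against 196 to 348 in Cx43KO, and Cspg4 and Matn4 were at 0 in at least 1 library. The 10 microglia markers summed to 29.0 to 51.3 CPM in Cx43FL, against 84.0 to 157 in Cx43KO, without overlap, and Tmem119, Itgam, Trem2 and C1qa were at 0 in at least 1 library. Of the 8 microglia markers tested, 4 passed the unadjusted test, all higher in Cx43KO, beside 5.66% of all tested genes. The 7 choroid plexus markers summed to 459.7 to 15330 CPM in Cx43FL, against 22159 to 32899 in Cx43KO, without overlap. Their sum was highest in Cx43KO replicate 1 and lowest in Cx43FL replicate 2, as for Tnr. The other libraries stood in different orders. Cx43KO replicate 2 was above replicate 3 for these markers and below it for Tnr, and Cx43FL replicate 3 was above replicate 1 for these markers and below it for Tnr. Of the 7 markers, 0 passed the unadjusted test. All 7 were fitted above 0, beside 54.4% of all tested genes, with a median log2 fold change of 1.79. For 6 of them every Cx43KO library was above every Cx43FL library, beside 8.08% of all tested genes. Of the 10 astrocyte markers, 1 was lower at the unadjusted p, beside 2.67% of all tested genes, and 0 were higher. Their median log2 fold change was -0.26. The part of these cell types in the Tnr difference was not tested.

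**Figure D3:**
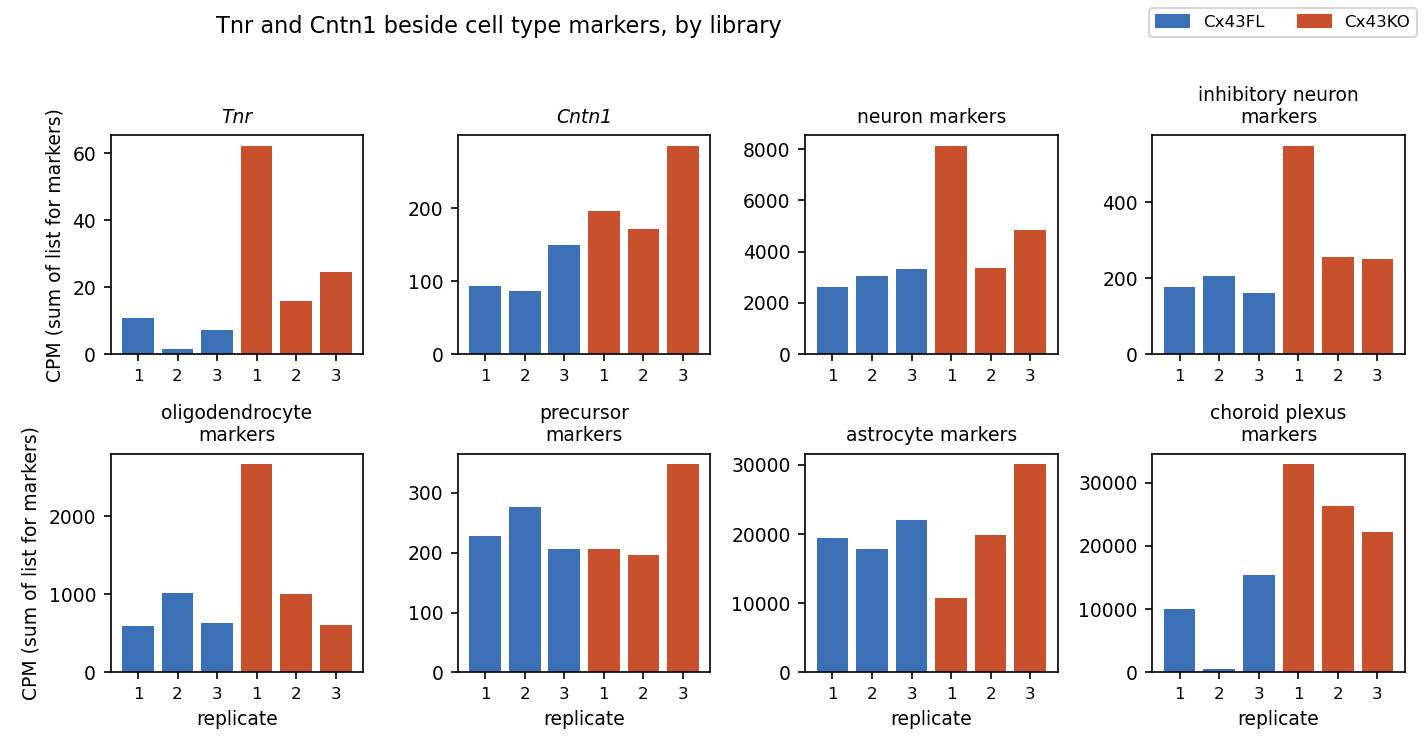
Bars per library, blue for Cx43FL and orange for Cx43KO, of the CPM of Tnr and of its receptor Cntn1 and of the summed CPM of 6 marker lists, each panel on its own axis from 0. Tnr and the neuron, inhibitory neuron, choroid plexus and oligodendrocyte markers are all highest in Cx43KO replicate 1. Of these, all but the oligodendrocyte markers have every Cx43KO library above every Cx43FL library.

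Tenascin-C, the tenascin of developing tissue, stem cell niches and injury, was scarce. Tnc, on chr4:63959785-64020725 (minus strand), had 2.90, 3.05 and 5.15 CPM in Cx43FL and 4.97, 4.50 and 8.30 CPM in Cx43KO. Cx43KO replicates 1 and 2 lay under the highest Cx43FL library, so the genotypes overlapped. For Tnc the log2 fold change was 0.68 ± 0.84, with an adjusted p of 0.818 by edgeR after Benjamini-Hochberg adjustment. Its 3 long transcripts had 626 to 630 counts over the 6 libraries, almost the same reads counted on each. The exons of Tnc share 176 bases with an antisense gene, 8030451A03Rik, and reads of the 2 genes cannot be told apart there unless strand was used.

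Hapln1 and Has2 build the hyaluronan scaffold. Hapln1 encodes the link protein that fastens lecticans to hyaluronan, and lies on chr13:89539796-89611652 (plus strand), close to Vcan. It had 65.2, 39.9 and 95.8 CPM in Cx43FL and 78.3, 75.5 and 83.0 CPM in Cx43KO. All 3 Cx43KO libraries fell between the middle and the highest Cx43FL library, and their highest value was only 1.10 times their lowest, against 2.403 times in Cx43FL. The log2 fold change was 0.24 ± 0.36, with an adjusted p of 0.859 by edgeR's quasi-likelihood test (Benjamini-Hochberg).

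Has2, 1 of the 3 hyaluronan synthases, lies on chr15:56665627-56694539 (minus strand) and had 15, 0 and 22 counts in Cx43FL against 0, 82 and 8 in Cx43KO. Each genotype thus had 1 library listed at 0, and Cx43KO replicate 2 alone held most of the reads. The log2 fold change was 0.55 ± 1.81 with an adjusted p of 0.944 by edgeR after Benjamini-Hochberg adjustment, and without Cx43KO replicate 2 it was -2.55. Its exons share 182 bases with the antisense gene Has2os.

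**Figure D4:**
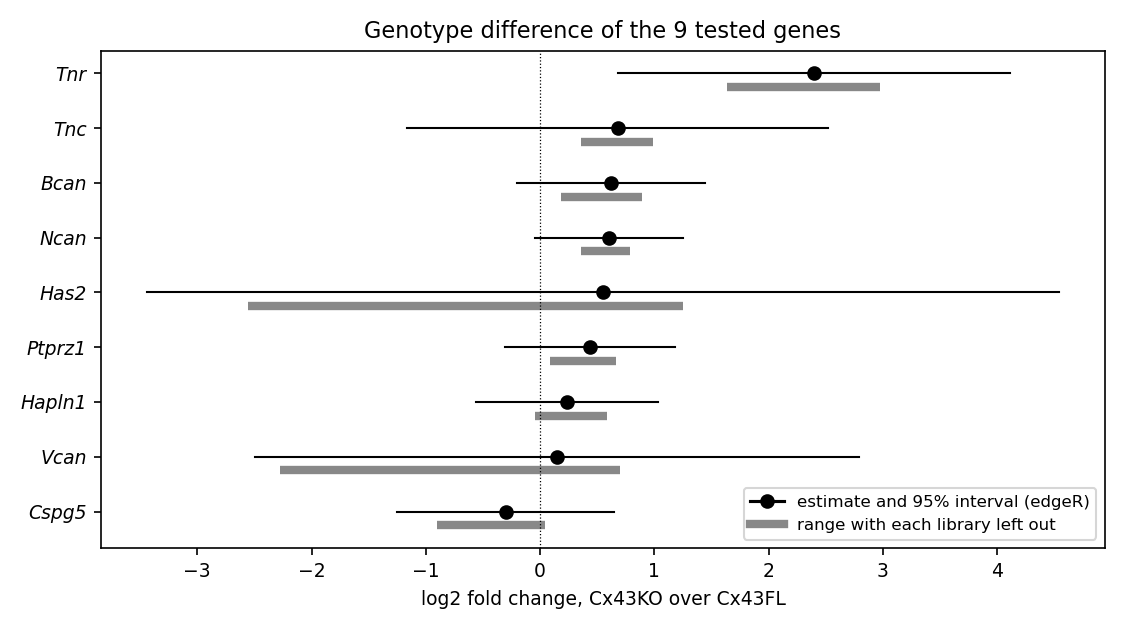
Log2 fold change of Cx43KO over Cx43FL for the 9 tested matrix genes, with a point and 95% interval from edgeR's fit and a grey bar for the range when each library is left out in turn. The interval of Tnr, 0.68 to 4.11, lies above 0, while those of the other genes include 0.

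The libraries pulled the members in different directions. Cx43KO replicate 3 was the highest library for 4 of the genes, Bcan, Ncan, Ptprz1 and Tnc, and Cx43KO replicate 1 for 2, Vcan and Tnr. In Cx43FL, replicate 2 was the lowest library for Vcan, Tnr, Hapln1 and Has2, and it was the highest for Acan, Cspg5, Ncan and Ptprz1. The 7 choroid plexus markers were also lowest in that library, with a sum of 459.7 CPM against 9936 and 15330 CPM in the other Cx43FL libraries and 22159 to 32899 CPM in Cx43KO, and their part in these values was not tested. Leaving out a Cx43KO library changed which matrix genes passed an unadjusted p of 0.05. Without replicate 1 these were Bcan, with a log2 fold change of 0.89, and Ncan, with 0.63, both higher in Cx43KO, beside 5.17% of all genes tested in that fit that were higher. Without replicate 2 they were Ncan, with 0.78, and Tnr, again higher, beside 6.57%. Without replicate 3 Tnr stayed higher and Cspg5 was lower, at -0.90, beside 5.17% of genes tested that were lower, while Bcan came to 0.18 and Ncan to 0.36. Bcan and Ncan had an adjusted p of 0.454 and 0.573 without replicate 1, and Cspg5 0.326 without replicate 3, by edgeR after Benjamini-Hochberg adjustment.

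Other genes that build, cut or bind this matrix were taken from 5 lists with 68 genes in all, of which 58 were tested. These lists too were chosen with earlier results of these data known, so their counts are not those of a blind choice. In the main fit 12 of them were higher in Cx43KO at an unadjusted p below 0.05, 0 were lower and 0 were called, beside 5.66% and 2.67% of all tested genes at the same unadjusted p. The 58 genes had a median log2 fold change of 0.66, and 45 were fitted above 0. The 12 genes had log2 fold changes of 0.74 to 4.92 and adjusted p values of 0.492 to 0.591 by edgeR after Benjamini-Hochberg adjustment. Over the 58 tested genes, 12 had every Cx43KO library above every Cx43FL library, beside 8.08% of all tested genes. The 12 genes at an unadjusted p below 0.05 are not the same 12, as 10 of them had no overlap. With 1 library left out in turn these genes stayed fitted above 0, and 5 to 11 of them had an unadjusted p below 0.05. They were picked by the fit of all libraries, so keeping their sign in parts of the same data is not separate support. The fewest, 5, were left without Cx43FL replicate 1, with 7 left without Cx43FL replicate 3 and 9 without Cx43KO replicate 1.

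Of the receptors and partners of proteoglycans and tenascins, all 14 were tested and fitted above 0, with a median log2 fold change of 0.91. The unadjusted p was passed by 6 of them, all higher in Cx43KO. Over all tested genes 54.4% were fitted above 0 and 5.66% were higher at the unadjusted p. The 12 neuron markers, given above with Tnr, had a median log2 fold change of 0.89 and every Cx43KO sum above every Cx43FL sum, with 8131, 3377 and 4860 CPM in Cx43KO, and their part in the receptor values was not tested. Cntn1, contactin-1, is a neuronal and glial adhesion molecule bound by tenascin-R and Ptprz1. It had 93.2, 86.5 and 149 CPM in Cx43FL and 196, 171 and 285 CPM in Cx43KO, with no overlap and a log2 fold change of 0.99 ± 0.33. Nrcam, an adhesion molecule of the L1 family, had 86.5, 95.8 and 98.7 CPM in Cx43FL and 199, 114 and 320.0 CPM in Cx43KO, and its log2 fold change was 1.17 ± 0.37. Itgb1, the integrin beta-1 chain of several matrix receptors, had 21.1, 28.4 and 23.1 CPM in Cx43FL and 79.0, 41.0 and 47.9 CPM in Cx43KO. For both genes the genotypes did not overlap.

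The remaining receptors at this threshold were Ncam1, Ptprs and Sdc3. Ncam1, the neural cell adhesion molecule, had 33.3, 66.1 and 47.9 CPM in Cx43FL and 199, 62.5 and 149 CPM in Cx43KO. Its log2 fold change was 1.48 ± 0.44, and Cx43KO replicate 2 lay under the highest Cx43FL library. Its Cx43KO libraries stood in the same order as the neuron marker sums, highest in replicate 1 and lowest in replicate 2. In Cx43FL the orders differed, with Ncam1 highest in replicate 2 and the neuron sum highest in replicate 3. Itgb1 and Ptprs were also highest in Cx43KO replicate 1, while Cntn1, Nrcam and Sdc3 were highest in Cx43KO replicate 3. The part of neurons in the Ncam1 difference was not tested. Ptprs encodes the receptor phosphatase that binds chondroitin sulfate on axons, and it had 62.6, 82.7 and 76.6 CPM in Cx43FL and 137, 117 and 116 CPM in Cx43KO. The genotypes did not overlap, and the 3 Cx43KO libraries lay close together. Sdc3, a neural heparan sulfate proteoglycan, had 49.9, 44.8 and 47.5 CPM in Cx43FL and 94.9, 52.2 and 102 CPM in Cx43KO. Its Cx43KO replicate 2 was only just above the Cx43FL libraries.

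Among enzymes that make chondroitin sulfate, 18 of 21 were tested and 2 passed the unadjusted p, both higher in Cx43KO. That is a small count to set beside 5.66% of all tested genes. Chst11 and Chst12 encode sulfotransferases that put sulfate on carbon 4 of N-acetylgalactosamine in the chain. Chst11 had 25.1, 32.6 and 34.0 CPM in Cx43FL and 61.5, 47.5 and 62.4 CPM in Cx43KO, and its log2 fold change was 0.90 ± 0.35. Chst12 had 1.19, 2.26 and 0.912 CPM in Cx43FL and 16.8, 3.66 and 6.24 CPM in Cx43KO. The fitted difference was 2.61 ± 0.96 on the log2 scale, with an unadjusted p of 0.136 without Cx43KO replicate 1. The genotypes did not overlap for either gene, and over the list the median log2 fold change was 0.45.

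Of the matrix proteases and their inhibitors, 10 of 15 were tested, with a median log2 fold change of 0.68. Of the 10, 2 were higher in Cx43KO at the unadjusted p, beside 5.66% of all tested genes. Adamts1 encodes a secreted protease that cuts lecticans, and it had 8.23, 6.10 and 12.9 CPM in Cx43FL and 37.0, 17.0 and 30.3 CPM in Cx43KO. Its log2 fold change was 1.63 ± 0.54. Timp2, an inhibitor of matrix metalloproteinases, had 95.05, 78.2 and 121 CPM in Cx43FL and 156, 172 and 172 CPM in Cx43KO, and its log2 fold change was 0.77 ± 0.29. Neither gene had overlapping libraries.

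The list of other matrix genes had 7 of 8 tested and a median log2 fold change of 0.33. Of the 7, 2 were higher in Cx43KO at the unadjusted p, beside 5.66% of all tested genes. Cspg4 encodes NG2, a membrane proteoglycan that marks oligodendrocyte precursors and pericytes. It had 4, 6 and 0 counts in Cx43FL against 245, 62 and 93 in Cx43KO, and no Cx43KO library was as low as any Cx43FL library. The Cx43KO counts alone took Cspg4 past the expression filter of edgeR's test, so its difference is not independent of that filter. Where at least 10 counts in every library were required, Cspg4 was not tested. The log2 fold change was 4.92 ± 1.46, and DESeq2 with its prior gave an adjusted p of 0.0397, the only 1 of the 12 under 0.05 by that tool. Without Cx43KO replicate 1 the log2 fold change was 3.56 with an unadjusted p of 0.0509. The paper, which used DESeq2, already lists Cspg4 among the transcripts most raised in Cx43KO. Its text also gives Cspg4 as the oligodendrocyte example where it reports transcripts of other cell types as mostly absent. The 8 other precursor markers in the counts summed to 206.3 to 276 CPM in Cx43FL, against 191 to 345 in Cx43KO, which overlapped, and the part of other cell types in the Cspg4 difference was not tested. Bgn, biglycan, a small secreted proteoglycan, had 33.8, 25.3 and 18.1 CPM in Cx43FL and 65.7, 29.98 and 107 CPM in Cx43KO, with Cx43KO replicate 2 inside the Cx43FL range. The 6 fibroblast markers summed to 24.0 to 43.98 CPM in Cx43FL, against 29.2 to 117 in Cx43KO, and the 10 endothelial and mural markers to 37.3 to 38.7 and 29.4 to 103 CPM, with Kcnj8 at 0 in every library. The part of these cells in the Bgn difference was not tested.

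Among the other link proteins and the hyaluronan genes, 9 of 10 were tested, with a median log2 fold change of 0.57, and 0 passed the unadjusted p in either direction. The gene of this list with the highest level per kb was Has3, another hyaluronan synthase. It had 29.2, 6.37 and 26.6 CPM in Cx43FL and 8.38, 21.1 and 18.3 CPM in Cx43KO. All 3 Cx43KO values lay inside the Cx43FL range, and the log2 fold change was -0.38 ± 0.64.

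**Figure D5:**
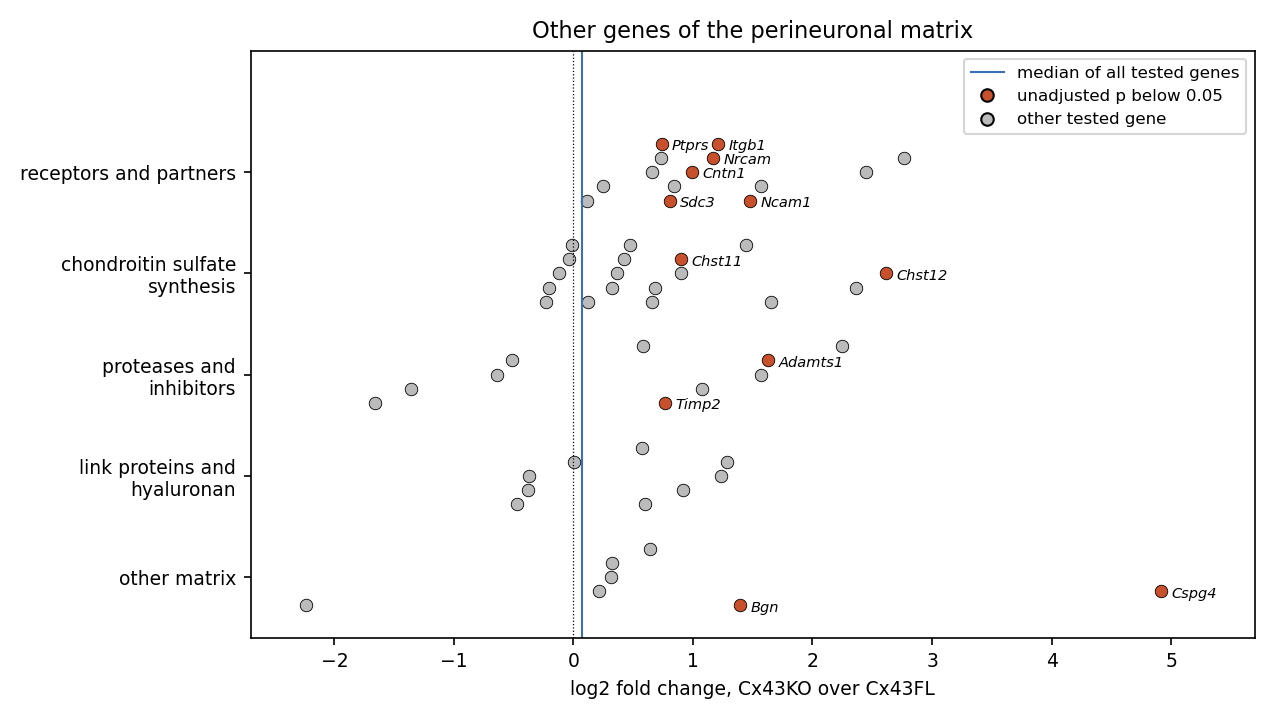
Log2 fold change of Cx43KO over Cx43FL for the 58 tested genes of the 5 lists, 1 point per gene and 1 row per list, with orange for the 12 genes at an unadjusted p below 0.05, grey for the others, and a vertical line at 0.07, the median of all tested genes. All 14 receptors and partners lie right of 0, and Cspg4 at 4.92 is the farthest from it.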

How the data were processed

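Polysomal RNA from TRAP was amplified from 2 ng with NuGEN's Ovation kit and read as 50 bp sequences. The authors filtered reads with Eoulsan, mapped them with STAR to mm10 (Ensembl 75), removed reads with several matches, counted with HTSeq-count 0.5.3 and deposited raw counts per Ensembl transcript, not per gene; the strand setting is not given in the sources used here. In the matching to GENCODE M21 (GRCm38), 73157 transcripts were found and 2309 were not, the latter with 1.60% to 1.78% of counts. For each of 22086 genes the transcript with most counts over all 6 libraries was taken. Coordinates and junction sequences are from GRCm38.

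Genotypes were tested in R 4.3.3 by edgeR 4.0.16 (TMM, filterByExpr, quasi-likelihood F test, genotype alone, Benjamini-Hochberg over 13545 genes). DESeq2 1.42.0, other scalings and filters, summed or separate transcripts, a replicate block and leaving out each library were alternatives. Exact permutation tests used log2 of CPM plus 0.5. The scripts were tested on simulated data. The lowest chi-square per degree of freedom between any 2 libraries was 32.5, so none was a repeat. Named were the members, genes of the wider lists at an unadjusted p below 0.05 (at most 12, by p), or otherwise a list's gene with the highest level per kb, and Gja1. Members and lists were chosen with earlier results of these data known. The 6 libraries were run 3 to a lane; which of them shared a lane is not given in the sources used here, and a lane effect was not tested.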

Additional observations from a re-analysis of the deposited data

How the results depend on the processing

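Of 134 values of the 9 tested members under the alternatives, 125 kept their direction and their side of the threshold and 9 changed sign, none of which was called in the main fit. The log2 fold change of Vcan was -0.55 with the replicate block, -0.0045 with upper-quartile factors, -0.32 without Cx43FL replicate 2 and -2.28 without Cx43KO replicate 1. That of Has2 was -1.67 with the replicate block, -0.032 without Cx43FL replicate 2 and -2.55 without Cx43KO replicate 2, and without Cx43FL replicate 2 Cspg5 came to 0.044 and Hapln1 to -0.041. With 1 library left out, Vcan ranged from -2.28 to 0.70, Cspg5 from -0.90 to 0.044, Hapln1 from -0.041 to 0.59 and Has2 from -2.55 to 1.248. The cause was not tested. The number of members called stayed 0 in every alternative but the unadjusted p, which gave 1, Tnr.

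Over all genes, 1 was called higher and 0 lower. The count higher was 0 with at least 10 counts in every library and with summed transcripts, 2 with the replicate block, 113 and 147 with DESeq2 with and without its prior, 763 at the unadjusted p, and 0 to 11 when 1 library was left out, the 11 without Cx43KO replicate 1. The count lower was 17 and 27 with DESeq2 with and without its prior and 358 at the unadjusted p. Of the wider lists, 8 in place of 12 genes were higher at the unadjusted p with the replicate block, and 0 to 1 gene was lower at the unadjusted p with 1 library left out. Same-numbered libraries did not deviate together, with correlations of -0.0071, -0.039 and -0.033, so the replicate block pairs libraries that share a number only. The median log2 fold change of all genes stayed between -0.0015 and 0.11 over the alternatives.

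With 3 libraries per genotype and a biological coefficient of variation of 0.600 over all genes, differences of the size fitted for most members could not be separated from the spread. Acan, Has2, Vcan and Tnc rest on few reads. The interval of the log2 difference of Has2 ran from -3.44 to 4.54.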
